A study of Mus musculus with 30 samples.

Results

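The genes described here are 36 mouse genes of the NRF2 and antioxidant system, taken by symbol from a named list out of the 55385 genes measured in each library. NRF2 (encoded by Nfe2l2) is a transcription factor that KEAP1 holds back and marks for degradation, and that oxidants and electrophiles release. It then binds antioxidant response elements and raises genes that make glutathione, recharge thioredoxin, and conjugate or reduce reactive molecules. The 36 comprise the regulators Nfe2l2 and Keap1; Nqo1 and Hmox1; the glutathione genes Gclc, Gclm, Gss, Gsr and Slc7a11; the thioredoxin genes Txn1, Txnrd1 and Srxn1; the peroxiredoxins Prdx1, Prdx2, Prdx3, Prdx5 and Prdx6; the peroxidases Gpx1, Gpx3, Gpx4 and catalase (Cat); the dismutases Sod1, Sod2 and Sod3; the transferases Gsta2, Gsta3, Gsta4, Gstm1, Gstm2 and Gstp1; and Ephx1, Ugdh, Abcc2, Aox1, Nox4 and Ucp2. The kidney, above all the proximal tubule, is rich in peroxidases and glutathione transferases, and the retina is exposed to light and high oxygen use.

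RNA was sequenced from whole kidney and whole retina of 16-week mice. The animals were Lepr(+/+), non-diabetic, or Lepr(db/db), which lack a working leptin receptor and become obese and diabetic. Each state was crossed with CAMK2D wild-type or a global CAMK2D knockout, a loss of one calcium/calmodulin-dependent kinase in every cell. Kidney had 4 libraries in each of the 4 groups, and retina had 3 libraries of wild-type mice without diabetes, 4 of wild-type mice with it, 4 of knockout mice without it and 3 of knockout mice with it. In all there were 30 libraries and 21 animals, and both organs were sequenced from 9 of these. Library names join K or R to the animal number. As the genotypes are constitutive and the tissue is bulk, fewer cells of a type and less RNA per cell cannot be told apart.

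Depth ran from 19870485 to 22643055 counts per library. The deleted gene, Camk2d, lay at 10.3 to 19.8 CPM (a gene's count scaled to the library's total) in kidneys of wild-type mice and at 0.0864 to 0.557 CPM in those of knockouts. In retina the ranges were 285 to 343 and 3.09 to 4.25 CPM. Summed proximal tubule markers (8 genes) were 5849 to 13801 CPM in kidney, and rod markers (5 genes) 41491 to 57521 CPM in retina, so both organs carried their defining transcripts. Some libraries stood apart. Mitochondrially encoded genes took 45.4% of counts in K591 and 36.4% in K861. Adipocyte markers (7 genes) summed to 586 CPM in K812, 255 in K819, 221 in K834 and 164 in K559, and to 36.1 CPM or less in the other 12 kidneys. Lens markers (8 genes) summed to 1372, 857 and 1228 CPM in R812, R819 and R588.

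CPM values compare a gene between libraries and were scaled to normalised library sizes within an organ, except in the comparison of organs, where they were scaled over both. TPM, the authors' length-scaled transcript abundances, allow for transcript length and compare genes with each other. A gene was called at an adjusted p under 0.05 in edgeR's quasi-likelihood test, adjusted over all genes tested in that organ. Folds are on the log2 scale and carry their standard error. All 36 genes passed the filter on low counts in every fit.

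The core of the antioxidant response element, TGACNNNGC read on both strands, was looked for in the RefSeq promoter windows (GRCm38.p6), which hold 300 bases from 250 before to 50 after an annotated start. A window was given for 30 of the 36 genes, and a gene with several windows counts if any holds the core. The core was present in 10 of those 30 (33.3%), against 3781 of 27025 genes with a window (14%). The 10 genes were Nfe2l2, Gclm, Txnrd1, Srxn1, Gsta3, Prdx1, Sod1, Ucp2, Ugdh and Abcc2. The first lines show Gsta3, Sod1 and Nfe2l2, which were called in a kidney comparison, and the next Gclm, Prdx1 and Txnrd1, which serve glutathione synthesis, the peroxiredoxin system and the thioredoxin system. Each sequence is written on the gene's own strand, with the core in capitals, also where the core lies on the opposite strand and so reads as its reverse complement, as in Sod1, Gclm, Prdx1 and Txnrd1.
Gsta3, chr1:21240449-21240487, plus strand: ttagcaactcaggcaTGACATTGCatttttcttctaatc
Sod1, chr16:90220691-90220729, plus strand: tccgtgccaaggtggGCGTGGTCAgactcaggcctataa
Nfe2l2, chr2:75704880-75704913, minus strand: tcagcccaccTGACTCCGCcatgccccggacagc
Gclm, chr3:122245408-122245446, plus strand: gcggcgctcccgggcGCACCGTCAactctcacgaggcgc
Prdx1, chr4:116685451-116685489, plus strand: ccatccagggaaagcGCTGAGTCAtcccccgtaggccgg
Txnrd1, chr10:82859099-82859137, plus strand: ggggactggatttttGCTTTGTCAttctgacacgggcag
The Prdx1 match overlaps an AP-1 site (TGACTCA or TGAGTCA, either strand), and no other stretch shown holds one. Only the stretches around a match, not the full windows, were searched for such a site. Nqo1, Ephx1, Gstp1, Nox4 and Slc7a11, also called below, had a window without the core, and Gclc had no window. Txnrd1 has 3 windows, of which 1 holds the core; the stretch shown lies at a start inside the gene (82833951 to 82897712), not at its outermost one. A match is a run of letters and not a measured binding site. Sequence outside the 300 bases was not searched, so a window without the core does not show that the gene lacks one.

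The antioxidant genes ranged in kidney (TPM scale) from Gpx3 at the top to Slc7a11 at the bottom. Gpx3, the glutathione peroxidase that the proximal tubule secretes into plasma, had a mean of 17330 ± 4895 TPM (SD, n = 16). Gpx1, the cytosolic peroxidase, followed at 1948 ± 272 TPM, then Prdx5 (a peroxiredoxin of mitochondria and peroxisomes) at 1347 ± 178, Gpx4 (which reduces lipid hydroperoxides) at 898 ± 189, Sod1 (cytosolic superoxide dismutase) at 763 ± 181 and the glutathione transferase Gsta2 at 728 ± 344 TPM. Below 1 TPM in kidney were Slc7a11, the cystine importer that feeds glutathione synthesis (0.148 ± 0.0606), and the aldehyde oxidase Aox1 (0.338 ± 0.336). Gpx3 was far above the rest, and neighbours from Gpx1 down to Gsta2 overlapped in their ranges over libraries. Reads of Gsta2, Gpx4, Gstp1 and Gstm1 can be shared with close copies, since 39.3%, 61.1%, 61.5% and 71.2% of their 31-base stretches occur in no other gene, so their levels are uncertain.

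Retina had another order (TPM scale, n = 14). Gpx4 led at 808 ± 53.7 TPM, followed by the transferase Gstp1 (337 ± 26.3), Sod1 (300 ± 14.1) and the peroxiredoxins Prdx2 (230 ± 21.4), Prdx6 (200 ± 22.7) and Prdx1 (139 ± 9.42). Gpx4 was separate from the others in each library (736 TPM or more), whereas Gstp1 and Sod1 overlapped, and so did Prdx2 and Prdx6. The bile-side and apical exporter Abcc2 was below 1 TPM (0.512 ± 0.174).

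**Figure D1:**
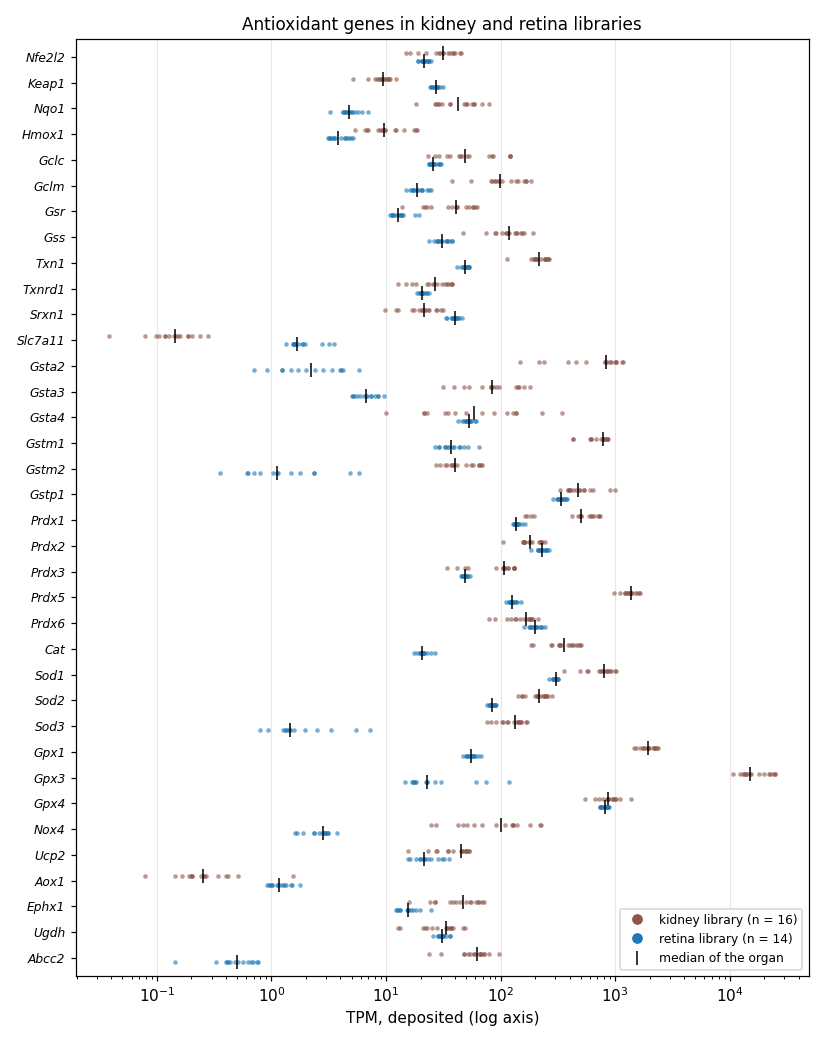
Deposited TPM (log axis) of the 36 genes in each kidney library (brown, n = 16) and retina library (blue, n = 14), with the organ median as a bar. Gpx3 has the highest median in kidney, while Keap1, Srxn1 and Slc7a11 are the 3 genes higher in each retina library than in any kidney library.

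The comparison of organs asked where the antioxidant system is most expressed. By TPM, 19 of the 36 genes were higher in each kidney library than in any retina library, 3 were higher in each retina library, and 14 overlapped. The 3 were Keap1 (5.18 to 12.3 TPM in kidney, median 9.41, against 24.1 to 31.4, median 27.3, in retina), Srxn1, which encodes the sulfiredoxin that repairs over-oxidised peroxiredoxins (9.73 to 31.4, median 21.2, against 33.3 to 45.9, median 39.6), and Slc7a11 (0.0384 to 0.28, median 0.143, against 1.35 to 3.53, median 1.67). By TPM the inhibitor of NRF2, the peroxiredoxin repair enzyme and the cystine importer were on the retinal side. On the count scale Keap1 (0.24) and Srxn1 (0.83) were higher in kidney. How many of all genes were separate between the organs in each library was not counted. The counts of separate genes are thus not read as a result about the 36.

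On the count scale edgeR called 35 of the 36 genes (97.2%), 34 higher in kidney and 1, Slc7a11, higher in retina (fell by 2.73 ± 0.17 in kidney against retina, adjusted p = 6.74e-15). In this comparison 87.8% of all 23021 genes were called, so the count says little about these genes. Their median log2 difference was 3.20 (count scale), beside −0.14 over all genes. Aox1 was not called (−0.26 ± 0.22, adjusted p = 0.256). The direction of 5 genes depended on the scale: with limma on log2(TPM + 1), which moved the median of all genes to −1.04, Keap1 (0.24 on the count scale, −1.47 on the TPM scale), Srxn1 (0.83 and −0.95), Prdx2 (1.08 and −0.33), Prdx6 and Ugdh (−0.42 and −0.09 on the TPM scale) were on the retinal side.

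The 12 called genes of smallest p between organs were all higher in kidney. Gpx1 lay at 1467 to 2352 TPM in kidney (median 1939) and 46.6 to 67.3 TPM in retina (median 55.6), with a log2 difference of 6.90 ± 0.12 in CPM (adjusted p = 3.37e-27). Catalase, which breaks down hydrogen peroxide in peroxisomes, lay at 183 to 504 TPM (median 359) against 17.7 to 26.5 TPM (median 20.8; 5.86 ± 0.13, adjusted p = 2.75e-25). These peroxide-removing enzymes did not overlap between the organs.
The transferase Gstm1 lay at 598 to 1087 CPM (median 818) against 11.7 to 25.5 CPM (median 15.5; scaled over both organs), and Prdx5 at 975 to 1645 (median 1363) against 112 to 152 TPM (median 125). Abcc2 lay at 23.8 to 97 TPM (median 61.7) against 0.144 to 0.767 TPM (median 0.498), a log2 difference of 8.84 ± 0.22 in CPM. Gsta3 lay at 31.7 to 181 TPM (median 84.6) against 5.04 to 9.5 TPM (median 6.73). These 4 genes were separate between the organs in each library, whereas the conjugation genes Gsta4, Gstp1 and Ugdh overlapped on the TPM scale.
Sod1 lay at 361 to 1016 TPM (median 794) against 266 to 319 TPM (median 303), Prdx1 at 164 to 739 TPM (median 504) against 129 to 162 TPM (median 136), and thioredoxin itself, Txn1, at 114 to 265 TPM (median 216) against 41.9 to 52.7 TPM (median 49.1). Glutathione synthetase, Gss, lay at 47.4 to 192 TPM (median 118) against 23.7 to 37.5 TPM (median 30.6), and the quinone reductase Nqo1 at 18.3 to 79.8 TPM (median 42.2) against 3.24 to 7.02 TPM (median 4.76). The twelfth, Nfe2l2, was closer: 14.9 to 44.7 TPM (median 31.3) in kidney and 19.1 to 24.6 TPM (median 21.5) in retina, which overlap.

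The first contrast within an organ asked what diabetes did in wild-type kidney. Here edgeR called 4 of the 36 genes (11.1%), 3 higher and 1 lower, where 7.29% of all 18177 genes were called. Their median log2 fold was 0.09, beside −0.05 over all genes. An unadjusted p under 0.05 was found for 15 of the 36 and for 5100 of all 18177 genes. The genes that rose were the phase II enzymes Nqo1, Gsta3 and Ephx1, and the gene that fell was Sod1.

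Nqo1 (chromosome 8, 107388225 to 107403206, GRCm38), the quinone reductase most used as a readout of NRF2, lay at 51, 41.4, 37.4 and 39.7 CPM in the 4 non-diabetic wild-type kidneys and at 74.8, 70.9, 84 and 92.7 CPM in the 4 diabetic ones. The groups did not overlap, and the fold was 0.93 ± 0.25 (adjusted p = 0.0371). In the knockout kidneys it lay at 42.5, 40.9, 74.2 and 74 CPM without and 45.8, 90.9, 60.8 and 106 CPM with diabetes, which overlap.
Gsta3 (chromosome 1, 21240589 to 21265661), an alpha-class glutathione transferase, lay at 86.5, 86.1, 66.6 and 60.3 CPM in non-diabetic and 133, 132, 155 and 175 CPM in diabetic wild-type kidneys (0.99 ± 0.25, adjusted p = 0.025). Again each diabetic library was above each non-diabetic one.
Ephx1 (chromosome 1, 180976210 to 181020904), the microsomal epoxide hydrolase, lay at 42.1, 54.7, 57.9 and 39.3 CPM in non-diabetic and 75.1, 85.6, 105 and 105 CPM in diabetic wild-type kidneys (0.93 ± 0.25, adjusted p = 0.0339). The groups were separate.
Sod1 (chromosome 16, 90220754 to 90226329) lay at 441, 429, 397 and 581 CPM in non-diabetic and 271, 239, 360 and 265 CPM in diabetic wild-type kidneys (−0.70 ± 0.18, adjusted p = 0.0304). Each diabetic library was below each non-diabetic one.

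These 4 calls were narrow. The counts that follow, with a library left out, have no share of all genes beside them. They show only how narrow the calls were. None of the 36 genes was called when K597, K645 or K877 (wild-type diabetic) was left out, 2 were called without K844, K834 or K861, and 7 without K596, a knockout diabetic library in the same fit (the 4 and Nfe2l2, Srxn1 and Aox1, at 0.46, 0.52 and −1.78). The folds in the fits that lost a call were 0.86 to 0.99 for Nqo1 (lost without K597, K645, K844, K877, K819, K834 or K861), 0.90 to 1.05 for Gsta3 (K597, K645, K877, K834 or K861), 0.84 to 1.03 for Ephx1 (K597, K645, K844, K877, K812 or K861) and −0.67 to −0.58 for Sod1 (K597, K645, K877 or K861). Adipocyte markers summed to 36.1 to 586 CPM in the non-diabetic and 7.45 to 35.1 CPM in the diabetic wild-type kidneys, with 3 of 7 called lower. With their sum as a covariate, and also without K861 and K591, none of these 4 genes was called, at folds that kept their sign. DESeq2 called 10 genes, limma on log2(TPM + 1) none.

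**Figure D2:**
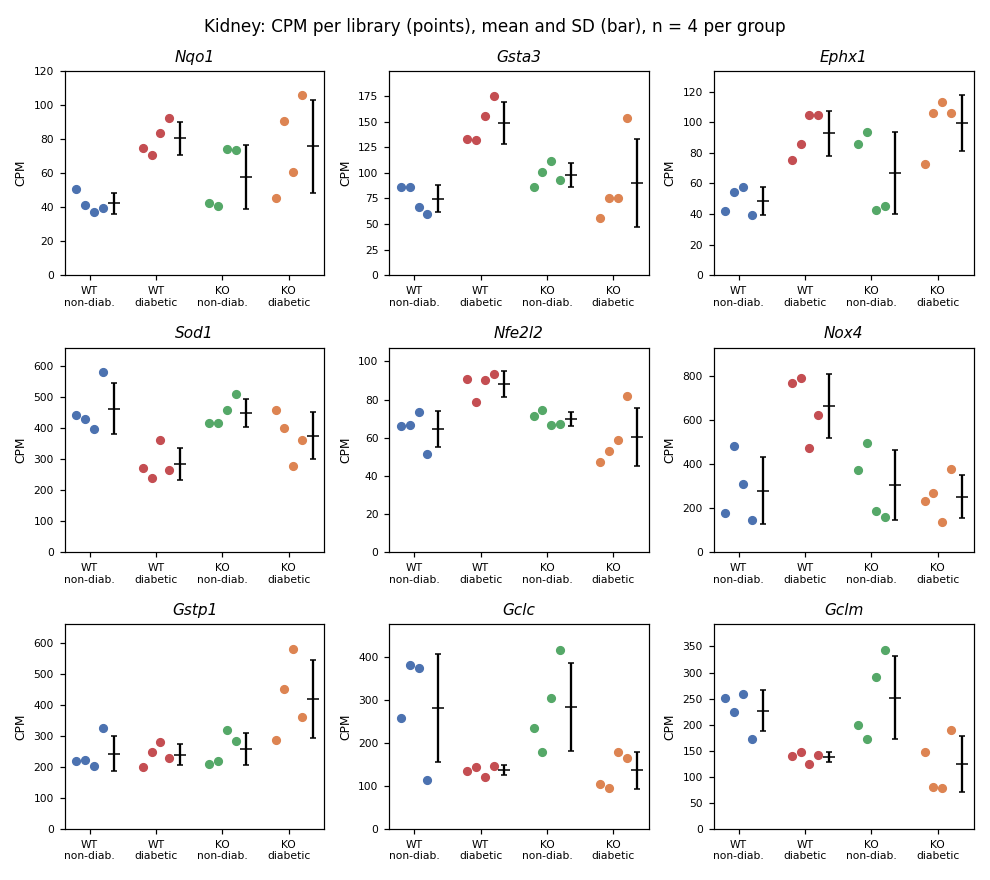
CPM per kidney library (points) with group mean and SD (bar, n = 4) for 9 genes in the 4 groups. Nqo1, Gsta3 and Ephx1 are separate between the wild-type groups, while in the knockout diabetic group 1 library of Gsta3 (153 CPM) sits above the other 3 (55.8 to 75.5 CPM).

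Glutathione synthesis genes had lower means in diabetic kidneys of both genotypes, without a call. Gclc, the catalytic subunit of glutamate-cysteine ligase, lay at 259, 380, 374 and 114 CPM in non-diabetic and 136, 145, 122 and 146 CPM in diabetic wild-type kidneys. In knockout kidneys it lay at 234, 178, 305 and 416 CPM without and 104, 95.4, 179 and 166 CPM with diabetes. In wild-type kidneys only the non-diabetic library K861, at 114 CPM and below all diabetic ones, broke the separation. In the knockout the lowest non-diabetic value, 178 CPM, lay just under the highest diabetic one, 179 CPM.
The folds of Gclc were −1.04 ± 0.34 in wild-type (adjusted p = 0.0691) and −1.06 ± 0.34 in knockout kidneys (0.269). Gclm, the modifier subunit, had folds of −0.71 ± 0.27 (0.113) and −1.02 ± 0.28 (0.22). Gclm lies on the chromosome of Camk2d, 4.33 Mb from it. The synthetase Gss had −0.33 in wild-type and −0.57 ± 0.22 in knockout kidneys, also without a call. Without K861 and K591, Gclc (−1.28) and Gpx3 (0.73) were the 2 genes called in wild-type kidney.

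Among the other roles no gene was called in this contrast, with folds as follows. Nfe2l2 had 0.45 ± 0.16 (adjusted p = 0.0825) and Keap1 −0.06 ± 0.11 (0.739). Srxn1 had 0.51 ± 0.16 (0.0657), Nox4, an oxidase that makes hydrogen peroxide in tubule cells, 1.25 ± 0.42 (0.0774), and Abcc2 0.95 ± 0.32 (0.081). Gpx3 had 0.59 ± 0.26 (0.16), its wild-type libraries reaching from 19001 to 27236 CPM without diabetes and from 30869 to 34332 CPM with it, without overlap. Aox1 had the most negative fold (−1.80 ± 0.54, 0.0546), with K812 at 6.78 CPM beside 1.12 to 1.43 CPM in the other non-diabetic libraries. Without K812 the fold of Aox1 was −0.77 (adjusted p = 0.184), nearer to 0 than that of Gclc with all libraries, and with limma on log2(TPM + 1) it was −0.36 (0.306).

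Of 101 further genes of antioxidant metabolism, 93 were tested and 15 called, 7 higher and 8 lower. Over all 18177 genes 1326 (7.29%) were called. The 4 of smallest p were Ggct, the cyclotransferase that recycles gamma-glutamyl peptides (36.3 ± 6.37 to 10.1 ± 1.61 CPM, n = 4 each; −1.84 ± 0.20, adjusted p = 0.00036), the phagocyte oxidase partners Rac2 (−1.77 ± 0.33, 0.0072) and Ncf4 (−2.15 ± 0.44, 0.0106), and Sesn2, a stress-induced sestrin (38.4 ± 3.73 to 74.6 ± 7.08 CPM; 0.96 ± 0.19, 0.00859). Macrophage markers (10 genes, none at 0 in all libraries of a group) summed to between 83.6 and 169 CPM in wild-type kidneys without and between 38 and 68.2 CPM in those with diabetes, and lymphocyte markers (8 genes) to 25.9 to 84.1 and 8.49 to 17.9 CPM, with 5 of 10 and 5 of 7 tested called lower. Their part in the fall of the phagocyte oxidase genes was not tested. Proximal tubule markers summed to 7332 to 9612 and 10373 to 13801 CPM in the same groups (1 of 8 called higher), and their part in the rise of Nqo1, Gsta3 and Ephx1 was not tested.

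In knockout kidney diabetes gave no called gene among the 36 with edgeR, where 0.077% of all genes were called. There were 8 with an unadjusted p under 0.05 (2620 of all 18177 genes). DESeq2 called 2 (Gpx3, 0.89, and Gclm, −1.03) and limma none. The share of all genes called by DESeq2 is not given here, so its count is not read as a result about the 36. The largest folds in each direction were those of Gclc (−1.06 ± 0.34) and Gpx3 (0.89 ± 0.26), the latter with 24153, 28953, 57964 and 26872 CPM in diabetic against 16050, 20350, 21603 and 16345 CPM in non-diabetic knockout kidneys. The high value belongs to K591, the library with the highest mitochondrial share, and the other 3 diabetic libraries were still above all non-diabetic ones. None of the 93 further genes was called.

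This count turned on library K596. It is a knockout diabetic kidney with 143 CPM of Gsr, the glutathione reductase, where the other 3 of its group had 56.4 to 63.7 CPM. Prdx1 (692 against 363 to 405 CPM), the mitochondrial peroxiredoxin Prdx3 (166 against 72.2 to 76.7), Prdx6 (212 against 141 to 152) and Ugdh, which makes UDP-glucuronate (112 against 57.5 to 64.8), showed the same split. Without K596, 7 of the 36 genes (19.4%) were called for diabetes in knockout kidney, where 12.4% of all genes were: Gpx3 (1.01) and Gstp1 (0.79) higher, and Gclm (−1.29), Prdx3 (−0.95), Prdx1 (−0.82), Gsr (−0.81) and Gss (−0.74) lower. Proximal tubule markers summed to 9900 CPM in K596 and 5849 to 7796 CPM in the other 3. Mitochondrially encoded genes took 22.2% of counts in K596 and 31.9%, 31.5% and 45.4% in K587, K588 and K591. The part of either in the split was not tested.

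Genotype in non-diabetic kidney gave no called antioxidant gene, where 0.435% of all genes were called. Only 2 of the 36 had an unadjusted p under 0.05, as had 1104 of all 18177 genes. The 2 were Hmox1 (0.84 ± 0.34, adjusted p = 0.644) and Aox1 (−1.16 ± 0.52, 0.784). Neither DESeq2 nor limma called any of the 36. Hmox1, the haem oxygenase that NRF2 induces, reached from 9.18 to 13.7 CPM in wild-type non-diabetic kidneys and lay at 11.1, 12.9, 27.8 and 27.3 CPM in knockout non-diabetic ones (K559, K560, K582 and K584). K582 and K584, the 2 libraries of that group with Y-linked transcripts, were also above K559 and K560 for Nqo1, Gclm and Gsr. Other genes went the opposite way, among them Ephx1 (42.4 and 45.3 CPM in K582 and K584, 85.6 and 93.5 in K559 and K560), Gsta2, Gsta4 and Nox4.

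Of the contrasts within an organ, genotype in diabetic kidney had the most calls over all genes, and 4 of the 36 genes (11.1%) were among them, where 19.7% of all genes were called. Gstp1 was higher in the knockout, and Nfe2l2, Gsta3 and Nox4 were lower; the median log2 fold was −0.11, beside 0.04 over all genes.

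Nfe2l2 (chromosome 2, 75675513 to 75704641), the NRF2 gene itself, lay at 91, 78.5, 90.1 and 93.6 CPM in wild-type diabetic and 47.4, 53.3, 58.7 and 82 CPM in knockout diabetic kidneys. K596, at 82 CPM, overlapped the wild-type range. The fold was −0.55 ± 0.16 (adjusted p = 0.0291).
Gsta3 lay at 133, 132, 155 and 175 CPM in wild-type and 55.8, 75.4, 75.5 and 153 CPM in knockout diabetic kidneys (−0.73 ± 0.25, adjusted p = 0.0487). The overlap was again K596 alone.
Nox4 (chromosome 7, 87246096 to 87398710) lay at 768, 789, 473 and 622 CPM in wild-type and 231, 268, 136 and 376 CPM in knockout diabetic kidneys (−1.39 ± 0.42, adjusted p = 0.0357). These groups were separate in each library.
Gstp1 (chromosome 19, 4035407 to 4037985), the pi-class transferase whose reads can be shared with Gstp2, lay at 200, 249, 280 and 228 CPM in wild-type and 288, 452, 579 and 361 CPM in knockout diabetic kidneys (0.81 ± 0.22, adjusted p = 0.0264). All knockout values were above all wild-type ones.

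The calls turned on single libraries here too. None of the 36 was called when K588, K591, K597, K645 or K877 was left out, 1 without K587 and 13 (36.1%) without K596, where 41.5% of all genes were called. The folds in the fits that lost a call were −0.61 to −0.45 for Nfe2l2 (K587, K588, K591, K597, K645 or K877 left out), −1.43 to −1.19 for Nox4 (the same 6) and 0.62 to 0.82 for Gstp1 (K588, K591, K597, K645 or K877). Gsta3 lost its call in 14 of 16 such fits (−0.79 to −0.56), all except those without K596 or K861. Without K596 the 13 were Gsr (−1.14), Prdx3 (−1.11), Gsta3 (−1.09), Nfe2l2 (−0.71), Prdx1 (−0.68), Srxn1 (−0.57), Sod2 (−0.41), Prdx6 (−0.40) and Nox4 (−1.63) lower, and Slc7a11 (1.13), Gstm2 (0.94), Gstp1 (0.90) and Ucp2 (0.62) higher. The direction of Ucp2 depended on the scale, since with all libraries it was 0.51 by edgeR and −0.44 with limma on log2(TPM + 1), neither called. None of the 36 was called with a term for mitochondrial share, where Nfe2l2 had −0.41, Gsta3 −0.50, Nox4 −1.09 and Gstp1 0.54. None was called either without K861 and K591, where the folds were −0.54, −0.66, −1.19 and 0.61, so calls were lost at folds of the same sign.

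Of the 93 further genes tested, 16 were called between diabetic kidneys, 8 higher and 8 lower. Over all 18177 genes 3573 (19.7%) were called. The 4 of smallest p, all higher in the knockout, were the phagocyte oxidase genes Rac2 (1.23 ± 0.495 to 5.18 ± 1.03 CPM; 2.06 ± 0.33, adjusted p = 0.00263), Cybb (2.83 ± 0.557 to 7.45 ± 1.5 CPM; 1.39 ± 0.23, 0.00296) and Ncf4 (2.55 ± 0.44, 0.00379), and Ggct (10.1 ± 1.61 to 21.5 ± 4.43 CPM; 1.08 ± 0.20, 0.00579). Macrophage markers summed to between 38 and 68.2 CPM in diabetic kidneys of the wild-type and between 136 and 163 CPM in those of the knockout, with 10 of 10 called higher, and proximal tubule markers to 10373 to 13801 and 5849 to 9900 CPM, with 3 of 8 called lower. Their part in these results was not tested. The contrast shares the wild-type diabetic libraries with that of diabetes in wild-type kidney, so signs in both contrasts are not independent.

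**Figure D3:**
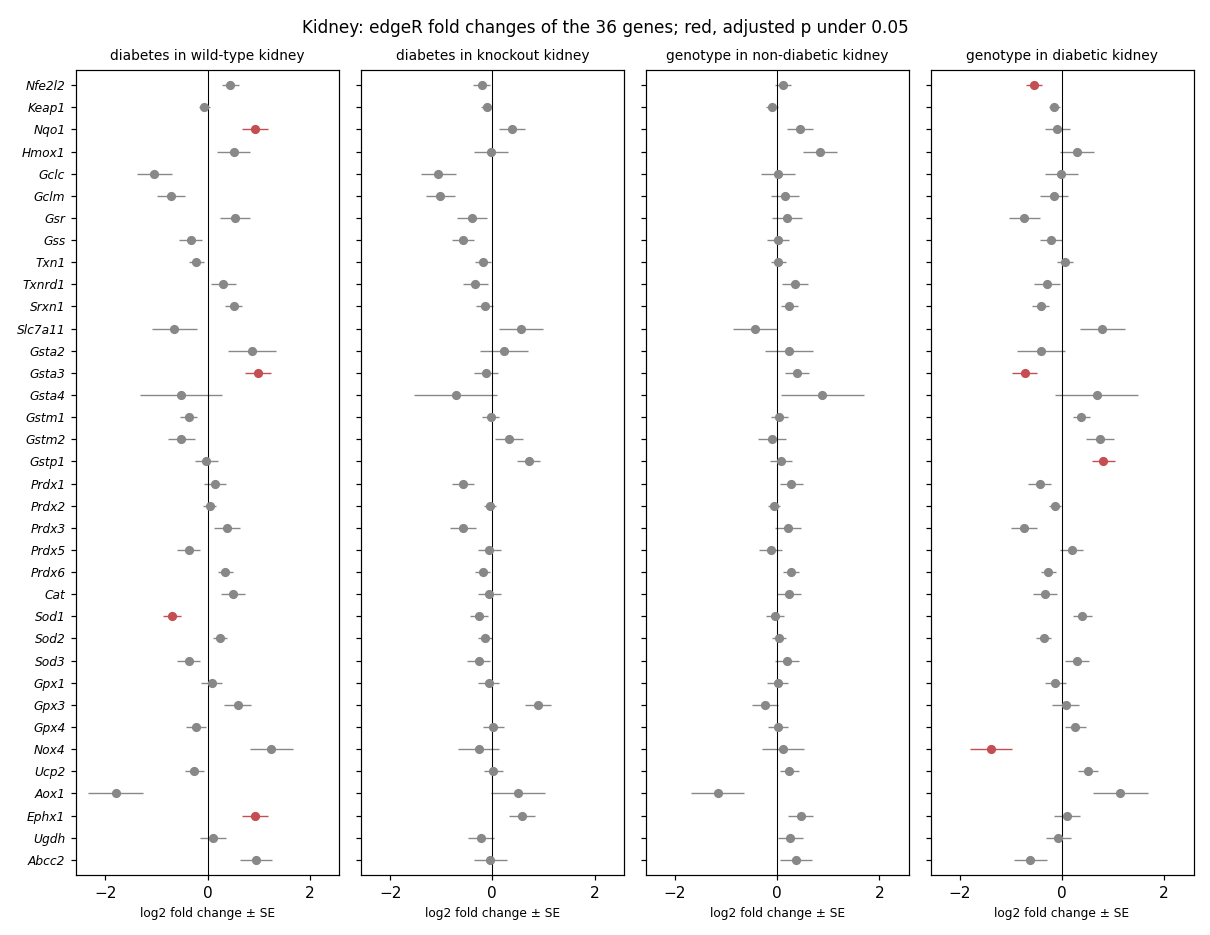
Log2 fold change ± SE of the 36 genes in the 4 kidney contrasts (n = 4 per group), with genes at an edgeR adjusted p under 0.05 in red. The red points are Nqo1, Gsta3, Ephx1 and Sod1 for diabetes in wild-type kidney, none for diabetes in knockout or genotype in non-diabetic kidney, and Nfe2l2, Gsta3, Gstp1 and Nox4 for genotype in diabetic kidney.

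The interaction in kidney, by which the effect of diabetes is set against genotype (knockout less wild-type), was called for none of the 36 genes and for 0% of all genes with edgeR. An unadjusted p under 0.05 was found for 12 of the 36 and for 5301 of 18177 genes, DESeq2 called 4 of the 36 and limma none. The differences of Nfe2l2 (−0.67 ± 0.22, adjusted p = 0.1) and Gsta3 (−1.11 ± 0.35, 0.09) were thus not past the threshold. Without K596, 11 of the 36 (30.6%) were called, where 29.4% of all genes were, with Gsta3 at −1.50, Gsr at −1.36, Prdx3 at −1.34 and Nfe2l2 at −0.85.

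Diabetes in wild-type retina gave 1 called gene of the 36 (2.78%), where 2.48% of all 20979 genes were called. It was Slc7a11 (chromosome 3, 49892526 to 50443614), the cystine-glutamate exchanger that supplies cystine for glutathione synthesis. It lay at 5.4, 6.31 and 5.16 CPM in the non-diabetic and 6.5, 13.4, 13.5 and 14 CPM in the diabetic wild-type retinas (1.08 ± 0.22, adjusted p = 0.0246). R915, R942 and R954 formed the high set, and R844, the only one of the 4 animals that also gave a kidney, lay just above the non-diabetic range.

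The same 3 libraries had the highest Gclc and Gsr values of the 14 retinas. Gclc lay at 51.9, 47.7 and 49.9 CPM in non-diabetic and 54.7, 58.8, 60.7 and 55.9 CPM in diabetic wild-type retinas (0.21 ± 0.05, adjusted p = 0.0534). Gsr lay at 18.4, 18 and 17.2 CPM and at 19.4, 26.7, 22.1 and 24.9 CPM (0.38 ± 0.10, 0.0592). Neither passed the threshold with all libraries. Without R844, 4 of the 36 were called (Slc7a11 at 1.28, Gsr at 0.46, Gclc at 0.23 and Gstp1 at −0.26), where 7.17% of all genes were. The Slc7a11 call was lost without R915, R954, R812, R819 or R852 (0.99 to 1.17). It was also lost with the mitochondrial share covariate, with limma on log2(TPM + 1) and in a fit of the 2 groups. In the fit without R942, 4 genes were called as well, 1 higher and 3 lower. The share of all genes called in that fit is not given here, so its count is not read as a result about the 36.

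Diabetes in knockout retina gave no called gene of the 36, and 0% of all genes were called with edgeR. There were 6 of the 36 with an unadjusted p under 0.05 (1855 of all genes), and neither DESeq2 nor limma called any of the 36. Slc7a11 lay at 4.53, 5.35, 4.42 and 5.57 CPM in non-diabetic and 4.85, 6.56 and 4.45 CPM in diabetic knockout retinas, which overlap.

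Genotype in diabetic retina gave 2 called genes (5.56%), where 1.78% of all genes were called. Slc7a11 fell from the wild-type values above to 4.85, 6.56 and 4.45 CPM in the knockout (−1.16 ± 0.23, adjusted p = 0.0196), with R588 at 6.56 CPM just above R844 at 6.5 CPM. Gclc (chromosome 9, 77754535 to 77794485) fell from 54.7, 58.8, 60.7 and 55.9 CPM to 50.4, 49 and 45.5 CPM (−0.25 ± 0.05, 0.0287), without overlap. The contrast shares the wild-type diabetic libraries with that of diabetes in wild-type retina. Without R844, 5 of the 36 were called, all lower in the knockout (Slc7a11 at −1.37, Gsr at −0.41, Gclc at −0.27, Prdx3 at −0.25 and Prdx2 at −0.24), where 5.35% of all genes were. Slc7a11 lost its call without R587, R591, R915 or R942 (−1.10 to −1.05) and Gclc without R587, R588, R591, R915 or R942 (−0.28 to −0.21). Only R588 of these left 1 of the 36 called, and the others none.

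**Figure D4:**
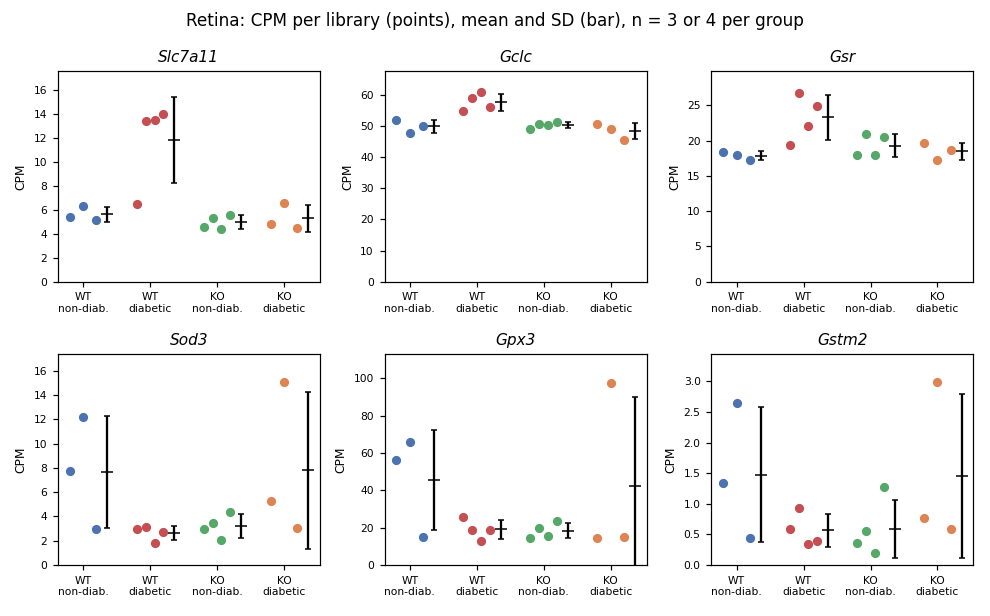
CPM per retina library (points) with group mean and SD (bar, n = 3 or 4) for 6 genes. In the wild-type diabetic group 3 libraries of Slc7a11 lie at 13.4 to 14 CPM and 1 at 6.5 CPM, and Sod3, Gpx3 and Gstm2 show 1 or 2 high libraries in the wild-type non-diabetic and knockout diabetic groups; the SD of Gpx3 in the knockout diabetic group reaches below the axis.

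Genotype in non-diabetic retina gave no called gene of the 36, where 1.14% of all genes were called. There were 5 with an unadjusted p under 0.05 (2738 of all 20979 genes), and neither DESeq2 nor limma called any of the 36. The interaction in retina was called for none of the 36 and for 0.124% of all genes. At an unadjusted p under 0.05 were 8 of the 36 and 2157 of all 20979 genes, and DESeq2 and limma called none of the 36. The Slc7a11 interaction was −0.99 ± 0.32 (adjusted p = 0.305), so its effect of diabetes was not shown to differ between genotypes. Without R844, Slc7a11 (−1.19) and Gsr (−0.52) passed the threshold. None of the 89 further antioxidant genes tested in retina was called by edgeR in any of the 5 contrasts.

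In retina the extracellular enzymes Sod3 and Gpx3, and also the transferase Gstm2, followed a few libraries. Sod3, the secreted superoxide dismutase, lay at 7.72, 12.2 and 3 CPM in wild-type retinas without diabetes and 1.79 to 3.11 CPM in those with it. In knockout retinas it lay at 2.06 to 4.35 CPM without diabetes and at 5.24, 15.1 and 3.01 CPM with it. Gpx3 lay at 56.1, 65.6 and 14.9 CPM, at 13 to 25.5, at 14.7 to 23.4, and at 14.6, 97.5 and 15.1 CPM in the same order. The high values belong to R812, R819 and R588. Gstm2 was highest in R588 (2.99 CPM) and R819 (2.64 CPM), with R812 at 1.34 and R590 at 1.27 CPM. R812, R819 and R588 had lens marker sums of 857 to 1372 CPM, while the other 11 retinas had 42.3 to 558 CPM. None of the 8 lens markers was at 0 in all libraries of the groups that hold R812, R819 and R588, and 1 was in each of the other groups. Of 7 lens markers tested, 7 were called lower for diabetes in wild-type retina and 3 lower for genotype in non-diabetic retina. For genotype in diabetic retina 6 were called higher, for the interaction 7 higher and for diabetes in knockout retina none. The part of lens tissue in the Sod3, Gpx3 and Gstm2 values, or in the calls of the retina contrasts, was not tested. The Sod3 interaction of 2.81 ± 0.69 (adjusted p = 0.177) was 0.54 (0.924) without R588, R812 and R819, and that of Gpx3 went from 2.46 ± 0.81 (0.305) to −0.67 (0.873). The wild-type folds with diabetes went from −1.53 to −0.18 for Sod3 and from −1.26 to 0.35 for Gpx3. Gstm2 moved likewise, its interaction from 2.65 ± 0.96 to −0.16 and its wild-type fold from −1.37 to 0.36. The fit without these 3 libraries, in which 1 wild-type non-diabetic retina remains and is assumed to vary like the other groups, called none of the 36 genes in any retina contrast, Slc7a11 included (1.20, adjusted p = 0.489, for diabetes in wild-type and −1.35, 0.0637, for genotype with diabetes).

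**Figure D5:**
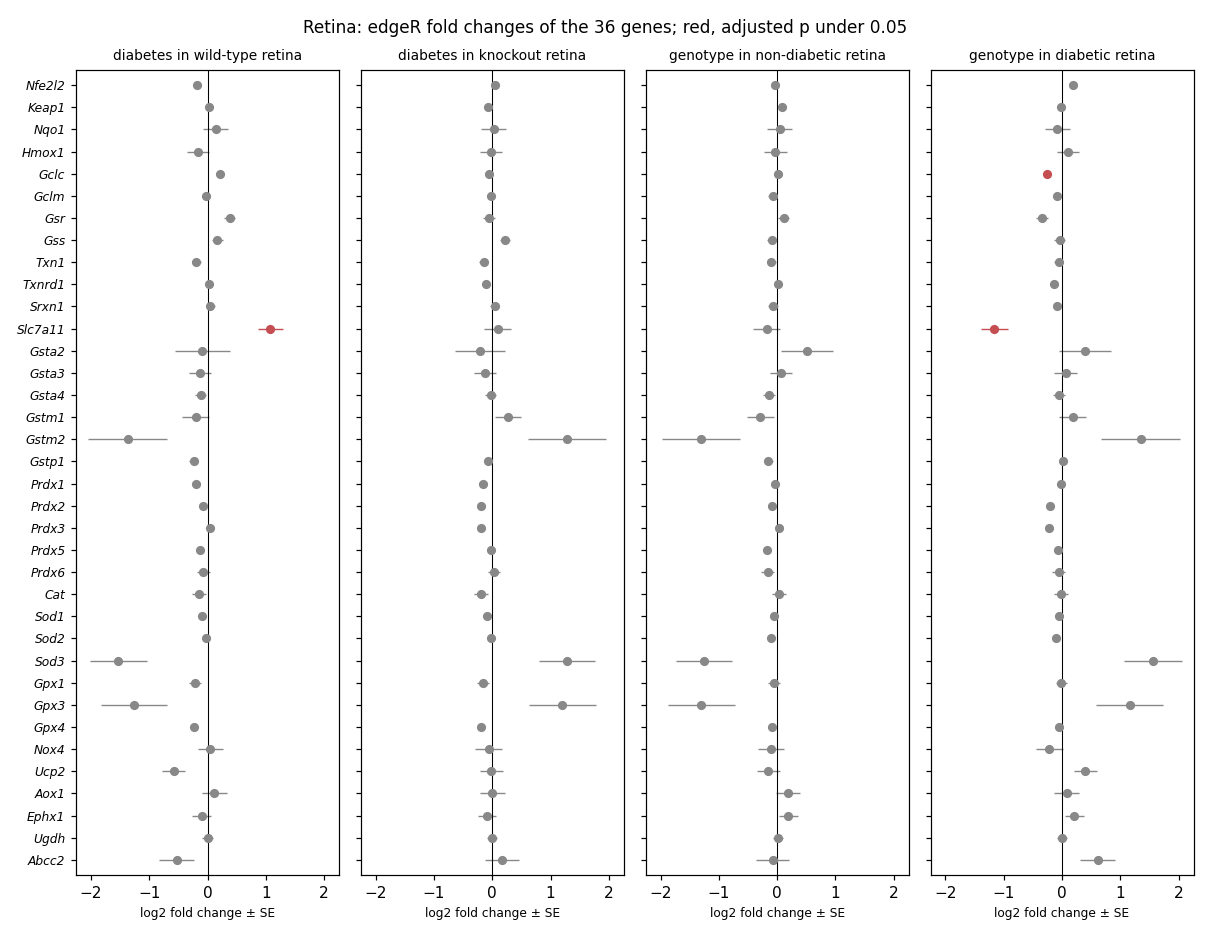
Log2 fold change ± SE of the 36 genes in the 4 retina contrasts (n = 3 or 4 per group), with genes at an edgeR adjusted p under 0.05 in red. Slc7a11 is red for diabetes in wild-type retina and, with Gclc, for genotype in diabetic retina, and Gstm2, Sod3 and Gpx3 lie farthest from 0 among the uncalled genes, with wide errors.

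Effects were also set side by side between organs. In wild-type animals, what diabetes did differed between kidney and retina for 1 of the 36 genes (2.78%), where 2.98% of all 23021 genes were called. It was Nfe2l2, with kidney values of 66, 66.7, 73.7 and 51.5 CPM without and 91, 78.5, 90.1 and 93.6 CPM with diabetes. Its retina values were 30.1, 33.3 and 30.2 CPM without and 29.4, 25.4, 27.2 and 28.1 CPM with diabetes. The groups did not overlap in either organ, but neither effect was called on its own (0.45 ± 0.16, adjusted p = 0.0825, in kidney and −0.18 ± 0.06, 0.135, in retina). The difference of the effects was 0.66 ± 0.18 (adjusted p = 0.0358). Some animals gave both organs, which this fit treats as independent libraries. In limma voom with the animal as a random block the difference was 0.67 (0.0365), the same as without the block. The estimated correlation between libraries of the same animal was −0.000, so the block could not change this result and is no check on the pairing. The call was lost without K597, K877, K861, R915, R942, R954, R812, R819 or R852 (0.57 to 0.69), and also with relative log expression size factors (0.65), without an expression filter (0.69) and with limma on log2(TPM + 1) (0.73). Slc7a11 narrowly missed the threshold (−1.69 ± 0.48, adjusted p = 0.0507) and was called with relative log expression size factors (0.0471), DESeq2 (0.0134) and limma on log2(TPM + 1) (0.0324), but not without an expression filter (0.0764) or with limma voom (0.15). Of 96 further genes tested, 4 were called, 3 with a more positive effect in kidney (Sesn2 1.10 ± 0.22, Gstt1 0.77 ± 0.19 and Slc25a4 0.71 ± 0.20) and 1 with a more negative one (Ggct −1.35 ± 0.30).

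The genotype effect in non-diabetic animals did not differ between organs by a called amount for any of the 36 genes, where 0.0999% of all genes were called. There were 4 with an unadjusted p under 0.05 (1396 of all 23021 genes), and neither DESeq2 nor limma called any of the 36.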

How the data were processed

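The submitters trimmed reads with Trim Galore 0.6.4 and quantified them with kallisto (listed as 0.4.6) on GRCm38.p6, per the submitters' processing notes. Which annotation release they used is not given in the sources used here. From these, the authors made and deposited estimated counts per gene, and TPM per gene, for 55385 rows. Of the estimated counts 35% were not whole, and they were rounded before testing. Symbols and coordinates came from GENCODE M21, where 241 identifiers did not match.

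The 36 genes and the further lists were chosen with earlier results of these data known. Replicates are separate animals. edgeR 4.0.16 in R 4.3.3 was fitted once per organ and once over both (trimmed mean of M values, filterByExpr by group, quasi-likelihood F test, Benjamini-Hochberg over all genes kept), and the script was tested on simulated data. There were 13 comparisons. A gene called in a comparison is given in every library (at most 12 of smallest p), others by range; of the further 101 genes at most 4 are named per comparison. For levels, the 6 genes of highest mean TPM per organ and those under 1 TPM are named. Alternatives were DESeq2 1.42.0, limma 3.58.1 on log2(TPM + 1), other normalisation, filter, covariates and samples. Sex was read from Xist and Y-linked transcripts. The adipocyte covariate, the fits without R588, R812 and R819, the unblocked fit of the 18 paired libraries and limma voom with and without the animal as a block were added after the data were seen. R915, R942 and R954 were set down to be left out for lens transcripts, but their lens marker sums are low (42.3 to 115 CPM). The p-values set a difference between groups against how much these animals' libraries vary. The same number in kidney and retina marks the same animal, so a replicate block by animal was tried between organs.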

Additional observations from a re-analysis of the deposited data

Results flagged for a closer look

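In groups of 4 libraries, a value is listed where its gap to the nearest other library took up most of the group's range, by Dixon's 95% limit. Of 210 sets of 4 values, 23 met this. The limit passes about 1 in 20 (0.05) for independent sets of normally distributed values. These sets are genes read in the same libraries, on untransformed CPM, so the 23 cannot be set against that rate.

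In the knockout diabetic kidney group, K596 stood above the others for Gsr (143 CPM), Prdx1 (692), Prdx3 (166), Prdx6 (212) and Ugdh (112), K591 stood above them for Gpx3 (57964 CPM) and below them for Prdx2 (131 CPM, others 152 to 155), and K587 below them for Ephx1 (72.8 CPM, others 106 to 113). In the wild-type non-diabetic kidney group, K861 stood above the others for Txn1 (256 CPM, others 200 to 209), Gstp1 (325 CPM, others 203 to 222) and Prdx5 (1654 CPM, others 782 to 908), and K812 for Aox1 (6.78 CPM). In the wild-type diabetic kidney group, K844 was apart for Txn1 (225 CPM, others 173 to 175), Txnrd1 (84.2 CPM, others 101 to 103), Ugdh (64.5 CPM, others 80.6 to 83.7) and Abcc2 (246 CPM, others 400 to 420), and K645 for Sod2 (374 CPM, others 321 to 328). K560 was apart for Prdx2 (160 CPM, others 148 to 150).

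In wild-type diabetic retina, R844 was apart for Slc7a11 (6.5 CPM, others 13.4 to 14), Gclm (43.8 CPM, others 37.2 to 38) and Gsta3 (4.81 CPM, others 3.86 to 3.9), and R942 for Gpx4 (336 CPM, others 286 to 293). R590 was apart for Cat (40.5 CPM, others 30.9 to 32.1) in knockout non-diabetic retina.

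The diabetes effect on Nfe2l2 in wild-type animals differed between kidney and retina by 0.66 on the log2 scale in the edgeR fit of both organs.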

How the results depend on the processing

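The 4 antioxidant genes called for diabetes in wild-type kidney became 10 with a sex covariate, 10 with DESeq2, 8 in a fit of the 2 groups, 2 without K861 and K591, and 0 with limma or with the adipocyte covariate. The 4 called for genotype in diabetic kidney became 11 with a sex covariate, 10 with DESeq2, 2 in a fit of the 2 groups, 2 with the adipocyte covariate, 1 with limma, and 0 with the mitochondrial share covariate or without K861 and K591. From 0 in the main analysis, DESeq2 gave 2 for diabetes in knockout kidney and 4 for the kidney interaction, where the sex covariate gave 1. For diabetes in wild-type retina 1 became 5 with DESeq2, 4 without an expression filter, 2 with a sex covariate, and 0 in a fit of the 2 groups, without R915, R942 and R954, or without R588, R812 and R819. For genotype in diabetic retina 2 became 0 with the mitochondrial share covariate, limma, a fit of the 2 groups, or without either set of 3 libraries. R915, R942 and R954 hold the highest Slc7a11 values, so leaving them out lowers its fold by construction and says nothing of its stability. The retina interaction went from 0 to 1 without an expression filter (Sod3). The organ by diabetes count went from 1 to 9 with DESeq2 and to 0 without an expression filter. Where no count over all genes follows for a comparison and setting, the count of antioxidant genes shows only how much the calls moved. Such a count, as with DESeq2 for organ by diabetes, genotype in diabetic kidney and diabetes in knockout kidney, is not read as a result about these genes. Over all genes, calls went from 1326 for diabetes in wild-type kidney to 2554 (sex covariate), 2498 (DESeq2), 237 (limma) and 124 (adipocyte covariate), and from 3573 for genotype in diabetic kidney to 5613 (sex covariate), 2348 (no filter), 1898 (without K861 and K591), 1651 (2 groups), 502 (mitochondrial share) and 416 (limma). For diabetes in wild-type retina they went from 520 to 1075 (DESeq2), 796 (no filter), 306 (mitochondrial share), 251 (limma), 21 (without 3 libraries) and 1 (2 groups), and for the kidney interaction from 0 to 1640 (DESeq2), 1194 (sex covariate), 24 (no filter) and 2 (limma). The cause of these shifts was not tested. The 1 wild-type diabetic retina left after removing 3 is assumed to vary like the other groups.

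Leaving out each library in turn gave 0 to 7 genes for diabetes in wild-type kidney, 0 to 7 for diabetes in knockout kidney, 0 to 13 for genotype in diabetic kidney, 0 to 11 for the kidney interaction, 0 to 4 for diabetes in wild-type retina, 0 to 5 for genotype in diabetic retina, 0 to 2 for the retina interaction and 0 to 3 for organ by diabetes. Where no share of all genes is given above, these counts show only how much the calls moved.

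With the animal as a replicate block (18 libraries of 9 animals), 35 genes were called between kidney and retina, and 35 in the same libraries without the block. With nearly all of the 36 genes called, this count can hardly move. Over all 30 libraries, limma voom gave 35 genes between organs and 1 for organ by diabetes, with the animal as a replicate block and without it. With an estimated correlation of −0.000 between libraries of the same animal, that block could not change the counts. Within an organ the groups share no animals. Where a gene was called in the edgeR fit or in the alternative set against it, signs reversed only in kidney against retina with limma on log2(TPM + 1): Keap1 −1.47, Srxn1 −0.95, Prdx2 −0.33, Prdx6 −0.42 and Ugdh −0.09.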

Other observations

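Kidney libraries also differed with sex as read from Xist and Y-linked transcripts, with 8 female and 8 male kidneys, 2 of each in every group. Gsta4, the transferase that conjugates the lipid peroxidation product hydroxynonenal, lay at 53.4 to 237 CPM (median 105) in the female and 12.5 to 40.5 CPM (median 26.7) in the male kidneys, without overlap. It was the 1 gene of the 36 that was separate in this way in kidney, and none was in retina. How many of all genes were separate by sex was not counted, so this count is not read as a result about the 36. Gsta4 was chosen for description after its values were seen, and no test was made.

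The sex covariate changed no sign of a called gene but raised the number of calls between groups, as given above. The group means of Gsta4 in wild-type kidney were 64.5 ± 45.4 CPM without and 44.9 ± 22.5 CPM with diabetes, and in knockout kidney 119 ± 116 and 72.1 ± 49.1 CPM (SD, n = 4).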
